A study of Mus musculus with 4 samples.

Results

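Chemokines are small secreted proteins that bind G protein-coupled receptors on leukocytes and other cells and direct their migration. They are named by the spacing of their first cysteines, CC (Ccl), CXC (Cxcl) and C (Xcl), and their receptors are named after the class of ligand bound (Ccr, Cxcr, Xcr). In steatohepatitis, injured hepatocytes, Kupffer cells, endothelium and stellate cells release chemokines that recruit monocytes, neutrophils and lymphocytes to the liver.

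The 50 chemokine and chemokine receptor genes described here were taken by symbol from 22180 genes, as those whose name begins with Ccl, Cxcl, Ccr, Cxcr, Xcl or Xcr followed by a digit. They comprise 33 ligands and 17 receptors. The rule used no expression value. Cx3cl1, Cx3cr1, Pf4, Ppbp and the atypical receptors, whose symbols fall outside the rule, are given separately as related genes.

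Liver RNA of male mice with a knockout (KO) of Nrg4, and of wild type (WT) male mice, was hybridised to Affymetrix Mouse Gene ST 2.1 arrays. Nrg4 encodes neuregulin 4, an EGF-like hormone made by fat that signals to the liver through ErbB receptors. From 3 months of age all animals of both genotypes ate for 20 weeks a diet that induces non-alcoholic steatohepatitis, so a liver without that diet is not part of the comparison, and tissue was taken from fed mice. The RNA on each array was pooled, and each genotype has 2 such pools. The labels do not state how many animals a pool holds, which tissues lack Nrg4 or what part of the gene was disrupted.

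Values are deposited log2 expression values, on a scale with an unknown zero point whose median over all probe sets is 0.54. Levels can be compared between pools for 1 gene and not between genes, since each probe set responds differently. In liver homogenate, fewer cells of a type and less RNA per cell cannot be told apart. Nrg4 had 0.93 in both KO pools and 2.54 and 2.30 in the WT pools. Its value in KO pool 1 is also held by other genes, among them Pf4 and Krt7, and carries no order among them. The 6 hepatocyte markers examined (Alb, Apoa1, Ttr, Hnf4a, Cps1 and Tat) were all above the table median in every pool, with a mean of 9.09 and 9.13 in the KO pools and 9.29 and 9.28 in the WT pools. With 4 arrays the precision is low, and an exact permutation of 2 pools against 2 cannot give a p below 0.333.

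Of the 50 genes, 23 had a mean over the 4 arrays at or above 0.54 and were tested among 12458 genes, and 27 lay below it and are called dim. The tested genes comprised 8 CXC ligands, 12 CC ligands and 3 receptors. Just inside that limit were Ccl4, with a mean of 0.55, and Ccl8, with 0.60. Just outside it were Cxcr1, with a mean of 0.53, and Ccr1, with 0.35. Most receptors, 14 of 17, were dim.

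The chemokine genes of KO livers lay mostly above those of WT livers, with a median difference larger over the CXC ligands than over the CC ligands. Of the 23 tested genes, 17 had a higher mean in KO and 6 a lower one, whereas 51.6% of all tested genes had a higher mean in KO. The median difference, KO minus WT, was 0.30 on the log2 scale over the 23 genes and 0.01 over all tested genes. It was 0.48 over the 8 CXC ligands, 0.10 over the 12 CC ligands and 0.42 over the 3 receptors. Whether the CXC and CC ligands differ from each other was not tested. No chemokine gene passed an adjusted p of 0.05 by limma, a threshold that 0.0482% of all tested genes passed. At an unadjusted p under 0.05, 3 were higher in KO (Cxcl16, Cxcl14 and Ccr2), beside 6.37% of all tested genes, and 0 were lower, beside 3.92%.

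In 8 of the 23 genes both KO pools lay above both WT pools, beside 22.2% of all tested genes. They were Cxcl16, Cxcl14, Cxcl1, Cxcl11, Cxcl12, Ccl4, Ccl24 and Ccr2. In 2 genes, Cxcl13 and Ccl27a, both KO pools lay below both WT pools, beside 19.5% of all tested genes. The pools of the other 13 overlapped. With each array centred on its median, 6 genes lay wholly above in KO and 2 wholly below, beside 18.2% and 21.8% of all tested genes. Cxcl12 and Ccl4 were then no longer wholly above.

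**Figure D1:**
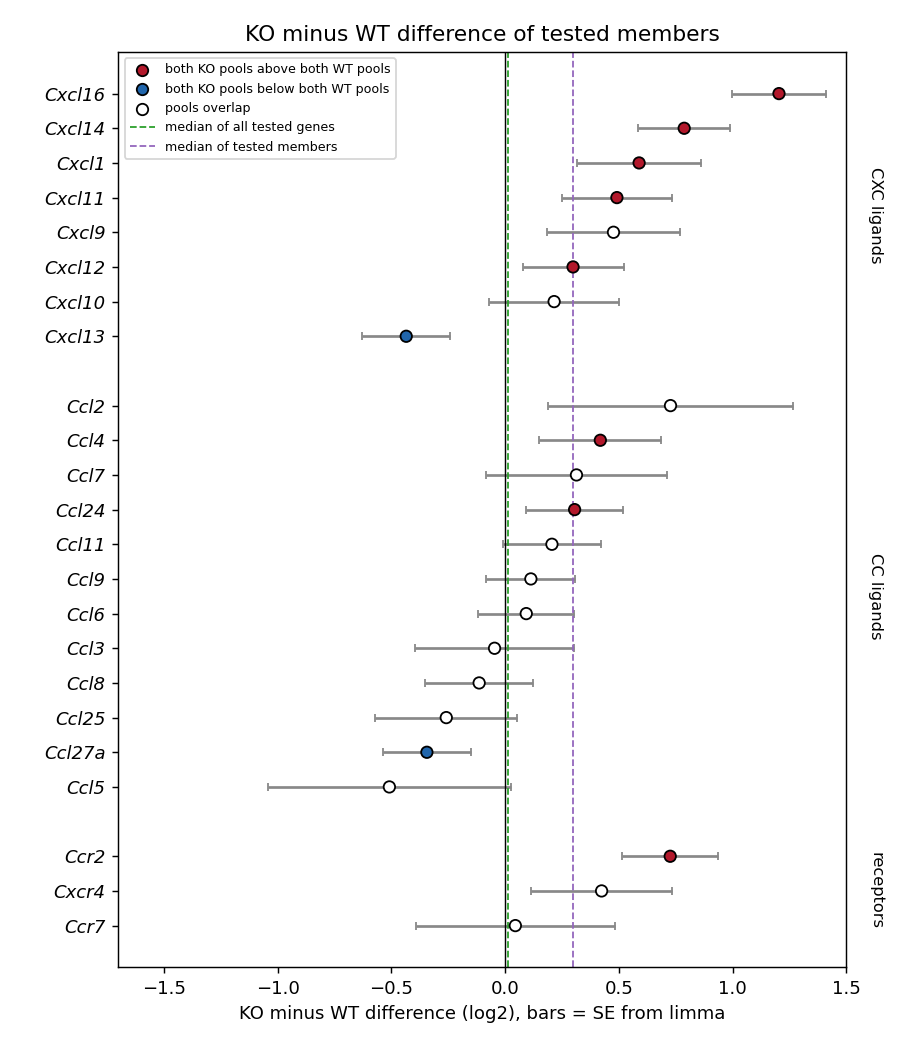
KO minus WT difference on the log2 scale (horizontal axis) of the 23 tested chemokine genes, grouped as CXC ligands, CC ligands and receptors; bars are standard errors from limma, and fill marks whether the 2 KO and 2 WT pools overlap. Cxcl16 lies farthest to the right at 1.20, and the median of the 23 genes (0.30) lies right of that of all tested genes (0.01).

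Promoter sequences are shown for Cxcl14 and Ccr2, which had an unadjusted p under 0.05, for Cxcl1, an inflammatory CXC ligand that was higher in both KO pools, and for Cxcl13, which was lower in both. The promoter of Cxcl16 was not used here. Each sequence holds the 250 bases before the RefSeq gene start on the gene's strand, from assembly GRCm38.p6. Capitals mark matches on either strand to GGG followed by any 5 bases and CC, the outline of a site for NF-kappa B, or to GAAA followed by any 2 bases and GAAA, the outline of an interferon-stimulated response element.
Cxcl14, chr13:56296552-56296801, minus strand: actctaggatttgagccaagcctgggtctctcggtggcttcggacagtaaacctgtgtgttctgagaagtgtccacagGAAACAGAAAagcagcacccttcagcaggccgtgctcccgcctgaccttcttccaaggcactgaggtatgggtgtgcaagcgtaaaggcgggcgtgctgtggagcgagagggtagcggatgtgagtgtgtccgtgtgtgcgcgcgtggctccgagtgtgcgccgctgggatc
Ccr2, chr9:124101933-124102182, plus strand: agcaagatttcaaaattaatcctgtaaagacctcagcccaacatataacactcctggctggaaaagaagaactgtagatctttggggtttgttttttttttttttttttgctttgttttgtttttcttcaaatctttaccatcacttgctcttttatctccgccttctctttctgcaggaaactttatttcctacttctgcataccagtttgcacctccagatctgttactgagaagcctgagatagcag
Cxcl1, chr5:90890995-90891244, plus strand: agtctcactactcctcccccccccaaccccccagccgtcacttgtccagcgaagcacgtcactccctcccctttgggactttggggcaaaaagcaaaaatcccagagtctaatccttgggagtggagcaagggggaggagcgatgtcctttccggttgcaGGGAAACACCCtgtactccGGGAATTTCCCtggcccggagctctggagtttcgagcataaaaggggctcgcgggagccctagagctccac
Cxcl13, chr5:95956689-95956938, plus strand: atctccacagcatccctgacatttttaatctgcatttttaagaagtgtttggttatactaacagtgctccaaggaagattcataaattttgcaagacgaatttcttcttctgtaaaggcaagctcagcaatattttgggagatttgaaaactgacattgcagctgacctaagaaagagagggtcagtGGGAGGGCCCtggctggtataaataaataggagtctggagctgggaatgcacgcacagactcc
The Cxcl1 window holds a pair of such stretches, at which matches on opposite strands overlap by all but 1 base. The Cxcl13 window holds 1 match, GGGAGGGCCC, which reads the same on both strands. The Cxcl14 window holds GAAACAGAAA, from 172 to 163 bases before the start, and no match to the first motif. The Ccr2 window holds neither.

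RefSeq promoters were matched by symbol for 36 of the 50 genes, which have 40 promoters. The first motif was found in 57.5% of them and in 45.8% of all 32851 promoters, and among the 17 promoters of tested genes in 47.1%. The second was found in 5% of the chemokine promoters (those of Cxcl10 and Cxcl14) and in 2.98% of all promoters. A match is a run of letters and was not tested for binding.

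Cxcl16 is made as a membrane-anchored chemokine that also serves as a scavenger receptor for oxidised lipoprotein, and its shed form attracts cells that carry Cxcr6. Its log2 level was 5.47 and 5.40 in the KO pools, against 4.38 and 4.09 in the WT pools. Both KO pools lay above both WT pools, with a gap that exceeds the spread within either genotype. The means were 5.44 ± 0.05 in KO and 4.23 ± 0.21 in WT (SD, n = 2 each), a difference of 1.20 ± 0.21 (SE), or 2.30-fold on the linear scale. It did not pass over all genes (limma, adjusted p = 0.233), and it passed when the prior variance was allowed to follow intensity (limma, adjusted p = 0.0197), where 1.09% of all tested genes were called. Over all alternatives its adjusted p lay between 0.0197 and 0.602, and its difference between 1.06 and 1.35 when a pool was left out.

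Cxcr6, the receptor of Cxcl16 on T cells and NKT cells, was dim, at 0.29 and -0.03 in the KO pools and 0.20 and 0.49 in the WT pools. Its pools overlapped, and when every gene was tested without the filter its difference was -0.22 (limma, adjusted p = 0.869). Of the proteases that shed Cxcl16, Adam10 had 5.59 and 5.73 in the KO pools, against 5.42 and 5.35 in the WT pools, a difference of 0.27 ± 0.19 (SE; limma, adjusted p = 0.686). Adam17 had 3.35 and 3.94 in the KO pools and 4.04 and 2.80 in the WT pools, which overlap.

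Cxcl14 is a homeostatic chemokine of epithelia and stroma. Its log2 level was 3.53 and 3.74 in the KO pools, against 2.94 and 2.76 in the WT pools. Here too both KO pools lay above both WT pools. The means were 3.64 ± 0.15 in KO and 2.85 ± 0.13 in WT (SD, n = 2 each), a difference of 0.79 ± 0.20 (SE; limma, adjusted p = 0.333), or 1.73-fold. The difference lay between 0.68 and 0.89 when a pool was left out, and without WT pool 2 (0.70) its unadjusted p was no longer under 0.05. With a pool left out, 1 genotype is a single array and the p rests on the spread of the other genotype and of all genes.

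Ccr2 is the receptor that brings Ly6C-high monocytes out of the bone marrow and into inflamed tissue. Its log2 level was 2.45 and 2.16 in the KO pools, against 1.67 and 1.49 in the WT pools, and the genotypes did not overlap. The means were 2.31 ± 0.20 in KO and 1.58 ± 0.13 in WT (SD, n = 2 each), a difference of 0.73 ± 0.21 (SE; limma, adjusted p = 0.369), or 1.65-fold. Without a pool the difference lay between 0.58 and 0.87. It no longer had an unadjusted p under 0.05 without KO pool 1 (0.58) and without WT pool 2 (0.64).

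Of the ligands of Ccr2, 2 were tested, and the pools of both overlapped. Ccl2, the main monocyte attractant, had 2.84 in KO pool 1 and 1.14 in KO pool 2, against 1.27 and 1.25 in the WT pools. One KO pool was thus far above, and the other below, both WT pools. KO minus WT came to 0.73 ± 0.54 (SE; limma, adjusted p = 0.701), and leaving out KO pool 2 gave 1.58, leaving out KO pool 1 gave -0.12. Ccl7, a close relative of Ccl2, had 2.35 and 1.42 in the KO pools and 1.21 and 1.93 in the WT pools, which overlap. Its value in KO pool 1 is held by 62 probe sets alike and carries no order among them. Its difference of 0.31 became -0.15 when KO pool 1 was left out and -0.04 when WT pool 1 was. Ccl12, another mouse ligand of Ccr2, was dim, at 0.38 and 0.12 in the KO pools, against 0.07 and -0.28 in the WT pools, which do not overlap.

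**Figure D2:**
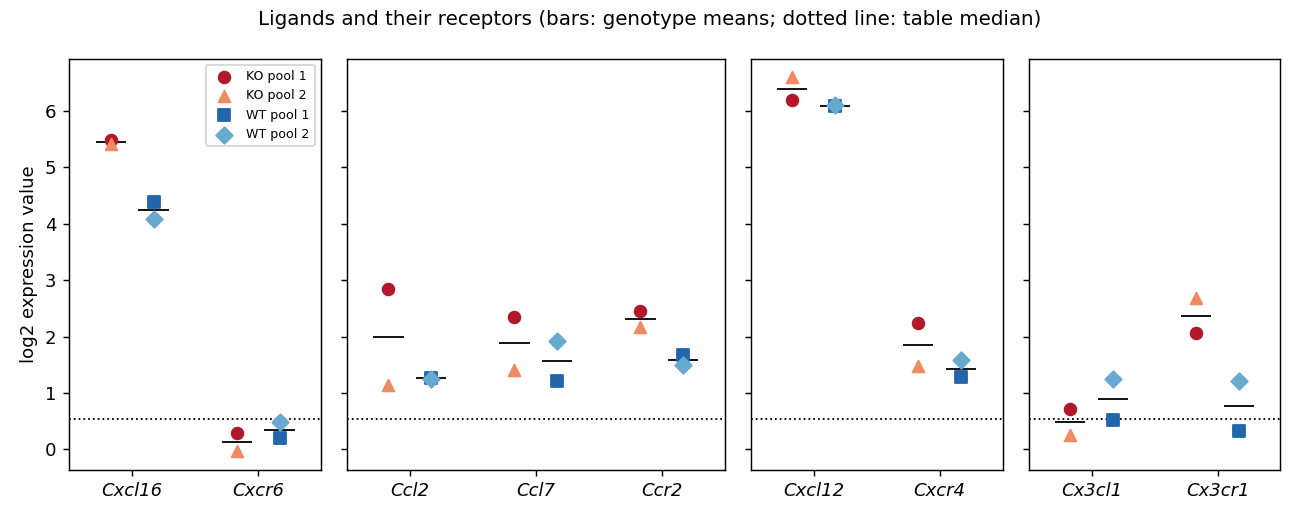
Log2 expression value (vertical axis) of ligands and their receptors in each pool, KO left of WT for each gene; black bars are genotype means and the dotted line is the table median. Both KO pools lie above both WT pools for Cxcl16, Ccr2, Cxcl12 and Cx3cr1, while Cxcr6 lies under the table median and Ccl2 is high in KO pool 1 only.

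Among the neutrophil-attracting CXC ligands, which bind Cxcr2, Cxcl1 had 2.76 and 3.14 in the KO pools, against 2.64 and 2.08 in the WT pools. Both KO pools lay above, the nearest by less than the gap between the WT pools. KO minus WT came to 0.59 ± 0.27 (SE; limma, adjusted p = 0.55), and it was 0.31 without WT pool 2. Cxcl2, Cxcl3 and Cxcl5, of the same group, were dim, and so was Cxcr2, at -0.10 and 0.09 in the KO pools and 0.00 and 0.09 in the WT pools. Cxcr1, its relative, was dim by its mean and had 0.18 and 0.01 in the KO pools and 0.28 and 1.67 in the WT pools. WT pool 2 alone stood above the table median there.

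Cxcl9, Cxcl10 and Cxcl11 are induced by interferon and attract T and NK cells through Cxcr3. All 3 were highest in KO pool 2. Cxcl11 had 2.51 and 2.62 in the KO pools, against 2.33 and 1.81 in the WT pools. The genotypes did not overlap, with a KO minus WT value of 0.49 ± 0.24 (SE; limma, adjusted p = 0.571), or 0.24 without WT pool 2. Cxcl9 had 5.16 and 5.86 in the KO pools and 5.17 and 4.89 in the WT pools, so KO pool 1 lay just under WT pool 1. The difference of 0.48 was 0.83 without KO pool 1 and 0.13 without KO pool 2. Cxcl10 had 1.98 and 2.62 in the KO pools and 1.91 and 2.26 in the WT pools. Its difference of 0.22 was -0.11 without KO pool 2. Cxcr3 was dim, at 0.23 and 0.14 in the KO pools and 0.33 and 0.51 in the WT pools. In KO pool 1 and in WT pool 1 its value is shared by 859 and by 519 probe sets.

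Cxcl12, a stromal and endothelial chemokine that retains leukocytes and progenitors, had 6.19 and 6.59 in the KO pools, against 6.09 and 6.10 in the WT pools. Both KO pools lay above, though no longer with each array centred on its median. The KO pools stood further apart from each other than KO pool 1 did from WT. The difference was 0.30 ± 0.22 (SE; limma, adjusted p = 0.702), or 0.10 without KO pool 2. Cxcr4, its receptor, had 2.24 and 1.47 in the KO pools and 1.28 and 1.59 in the WT pools. Those pools overlapped, and the difference of 0.42 ± 0.31 was 0.04 without KO pool 1.

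Cxcl13, which draws B cells into follicles, was the 1 tested CXC ligand with a lower mean in KO. It had 1.75 and 1.61 in the KO pools, against 2.16 and 2.06 in the WT pools. Both KO pools lay below both WT pools, with a KO minus WT value of -0.43 ± 0.19 (SE; limma, adjusted p = 0.526). With quantile normalization it was the 1 tested chemokine gene lower at an unadjusted p under 0.05, beside the same 3 higher. In that fit 538 of all 12458 tested genes were lower and 713 higher at this threshold. Its receptor Cxcr5 was dim, at 0.22 and 0.37 in the KO pools and 0.16 and 0.45 in the WT pools.

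**Figure D3:**
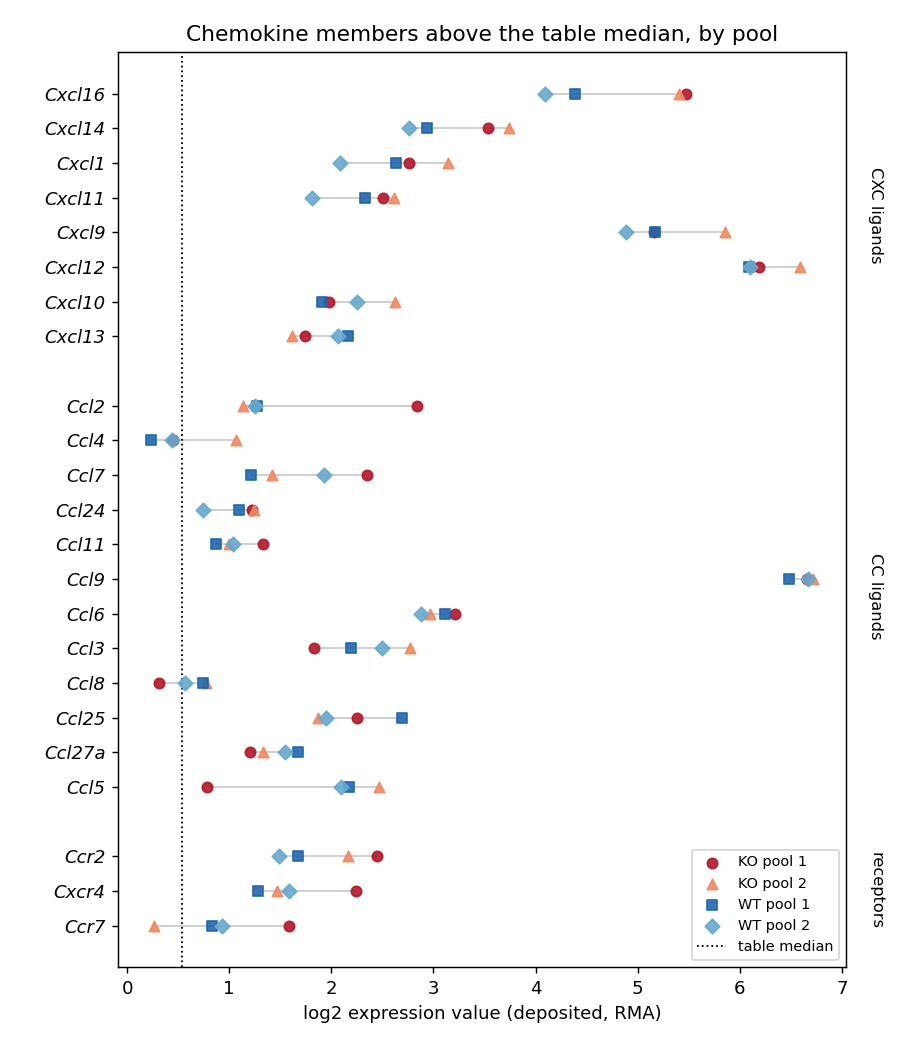
Log2 expression value (horizontal axis) of each tested chemokine gene in KO pools 1 and 2 and WT pools 1 and 2, with the dotted line at the table median. Ccl2 and Ccl5 show 1 KO pool apart from the other 3 pools (2.84 for Ccl2 and 0.78 for Ccl5 in KO pool 1), whereas the KO pools of Cxcl16 (5.47 and 5.40) nearly coincide.

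Among the CC ligands, Ccl4, an attractant of monocytes and T cells, had 0.45 and 1.07 in the KO pools, against 0.24 and 0.44 in the WT pools. The KO pools lay above by little, since KO pool 1 barely exceeded WT pool 2, and the WT mean lay below the table median. Ccl24, an eotaxin that attracts eosinophils through Ccr3, had 1.22 and 1.24 in the KO pools, against 1.10 and 0.75 in the WT pools. Its difference of 0.31 ± 0.21 (SE; limma, adjusted p = 0.686) was 0.13 without WT pool 2. Ccr3 was dim, at 0.41 and 0.27 in the KO pools and 0.00 and 0.23 in the WT pools. Ccl27a, which attracts skin-homing T cells through Ccr10, had 1.20 and 1.33 in the KO pools, against 1.67 and 1.55 in the WT pools. Its difference was -0.34 ± 0.19 (SE; limma, adjusted p = 0.615). Its second probe set, in which the genotypes overlap, gave -0.09, and the first carries the same values as other probe sets assigned to several near-identical copies, so the copy measured is uncertain. Ccr10 was dim, at -0.31 and 0.05 in the KO pools and 0.28 and -0.03 in the WT pools.

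Ccl5, a T cell and monocyte attractant, had 0.78 in KO pool 1 and 2.46 in KO pool 2, against 2.17 and 2.09 in the WT pools. KO pool 1 lay far under the other 3 pools, and the difference of -0.51 ± 0.53 (SE; limma, adjusted p = 0.794) was 0.33 without it. Ccr7, the lymph node homing receptor of T cells and dendritic cells, had 1.59 and 0.26 in the KO pools and 0.83 and 0.93 in the WT pools, with the WT pools between the KO pools. Its difference was 0.05 ± 0.44, or -0.62 without KO pool 1 and 0.71 without KO pool 2. The overlapping CC ligands Ccl3, Ccl6, Ccl8, Ccl9, Ccl11 and Ccl25 had differences between -0.26 (Ccl25) and 0.21 (Ccl11). For Ccl9, a myeloid chemokine, the values were 6.66 and 6.72 in the KO pools and 6.48 and 6.67 in the WT pools, a difference of 0.11 ± 0.20, or 0.016 without WT pool 1 and 0.21 without WT pool 2.

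A gap of more than 1 log2 unit between the KO pools was found in 3 tested chemokine genes, Ccl2, Ccl5 and Ccr7, and in 4.30% of all tested genes. The median gap between KO pools was 0.38 over the 23 genes and 0.26 over all tested genes. Between the WT pools the medians were 0.20 and 0.23. KO pool 2 was the highest pool in 12 of the 23 genes and KO pool 1 in 8, against 3 for WT pool 1 and 0 for WT pool 2. Over all tested genes these shares were 29.2% and 23.5% for KO pools 2 and 1, and 25.9% and 21.4% for WT pools 1 and 2.

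Many chemokine genes lie side by side, and in each of the 2 longest runs of CC ligands most genes were highest in the same KO pool. By the order of protein-coding genes in RefSeq, Ccl2, Ccl7, Ccl11, Ccl12, Ccl8 and Ccl1 are consecutive, and 5 of these 6 were highest in KO pool 1, all but Ccl8. In the second run, Ccl5, Ccl9, Ccl6, Ccl3 and Ccl4, 4 of 5 were highest in KO pool 2, all but Ccl6. Ccl9 led there by little, with 6.72 against 6.67 in WT pool 2. Over all tested genes KO pool 1 was highest in 23.5% and KO pool 2 in 29.2%. Cxcr2 and Cxcr1, also neighbours and both dim, were highest in WT pool 2. For Cxcr2 the lead is negligible, with 0.0914 against 0.0902 in KO pool 2. Of Cxcl5, Cxcl3, Cxcl15, Cxcl1 and Cxcl2, 1 was highest in KO pool 1, 2 in KO pool 2 and 2 in WT pool 2. Of Cxcr6, Xcr1, Ccr1, Ccr1l1, Ccr3 and Ccr2, 4 were highest in KO pool 1 and 2 in WT pool 2. Ccl26 and Ccl24 were highest in 1 KO pool each, and of Ccl22 and Ccl17, 1 was highest in KO pool 2 and 1 in WT pool 2. Ccl12 and Ccl1 are dim. Outside the 2 runs of CC ligands, every gene named here is dim except Cxcl1, Ccl24 and Ccr2. The shares above are over tested genes only, and the difference between the runs was not tested.

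The dim ligands were Ccl1, Ccl12, Ccl17, Ccl20, Ccl22, Ccl26, Ccl28, Cxcl2, Cxcl3, Cxcl5, Cxcl15, Cxcl17 and Xcl1, with differences between -0.58 (Ccl28) and 0.41 (Xcl1). The dim receptors were Ccr1, Ccr1l1, Ccr3, Ccr4, Ccr6, Ccr8, Ccr9, Ccr10, Cxcr1, Cxcr2, Cxcr3, Cxcr5, Cxcr6 and Xcr1, with differences between -0.88 (Cxcr1) and 0.45 (Ccr4). Among the 27 dim genes both KO pools lay above both WT pools in 6 and below in 6. Over all genes without the filter, the tested ones included, these shares were 20.9% and 17.04%. Ccr4, a receptor of Th2 and regulatory T cells, had 0.37 and 0.24 in the KO pools, against -0.15 and -0.12 in the WT pools, all below the table median. Its value in WT pool 1 is shared by 526 probe sets. When every gene was tested without the filter, Ccl28, an epithelial ligand of Ccr10, was the 1 dim gene at an unadjusted p under 0.05. It had 0.18 and -0.13 in the KO pools, against 0.48 and 0.73 in the WT pools (limma, adjusted p = 0.59). No fold is given for genes at such levels.

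**Figure D4:**
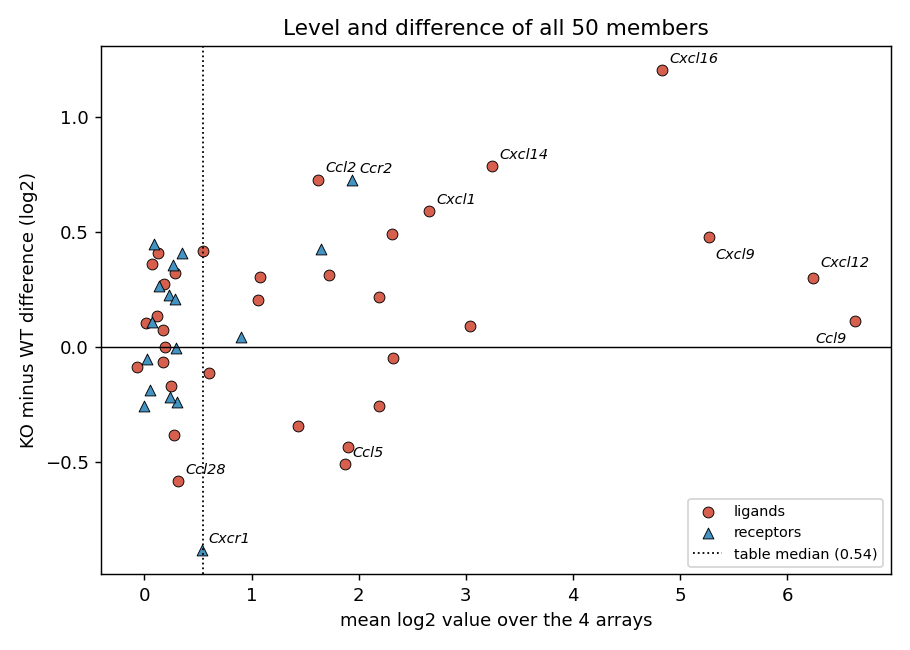
KO minus WT difference on the log2 scale (vertical axis) against the mean log2 value over the 4 arrays (horizontal axis) of all 50 chemokine and receptor genes, with ligands as circles and receptors as triangles. Of the receptors, 14 of 17 lie left of the table median of 0.54, and Cxcl16 is the highest point at 1.20.

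Ccl19, Ccl21 and Ccl27, ligands of Ccr7 and Ccr10, lie in a region with many near-identical copies, and 33 probe sets name several of these copies at once. They were left out of the 50 genes. Their differences ran from -0.07 to 0.41 over 9 distinct sets of values for Ccl19, from 0.01 to 0.67 over 5 for Ccl21 and from -0.34 to 0.15 over 9 for Ccl27.

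Ligands and receptors were paired by known binding. In 4 pairs both partners were above the table median, which were Ccr2 with Ccl2 and with Ccl7, Cxcr4 with Cxcl12, and Cx3cr1 with Cx3cl1. In 17 pairs the ligand was tested and its receptor was dim.

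Cx3cr1, the fractalkine receptor of monocytes and macrophages and a gene outside the symbol rule, had the largest difference of the related chemokine genes. It had 2.06 and 2.68 in the KO pools, against 0.32 and 1.22 in the WT pools. Both KO pools lay above both WT pools, with a difference of means of 1.59 ± 0.37 (SE; limma, adjusted p = 0.299). Its ligand Cx3cl1 had 0.72 and 0.25 in the KO pools and 0.53 and 1.25 in the WT pools, which overlap. Ppbp, a platelet ligand of Cxcr2, had 0.89 and 1.25 in the KO pools, against 1.51 and 2.14 in the WT pools, a difference of -0.75 ± 0.28 (SE; limma, adjusted p = 0.463). Pf4, the other platelet chemokine of this family, had 0.93 and 0.78 in the KO pools and 1.27 and 0.87 in the WT pools. Its value in KO pool 1 is the one that Nrg4 also holds. Cmklr1, the chemerin receptor, differed by 0.65 ± 0.24 (SE; limma, adjusted p = 0.455). Of the 9 tested genes of this list, 2 were higher and 1 was lower at an unadjusted p under 0.05, beside 6.37% and 3.92% of all tested genes, with a median of -0.11.

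The atypical receptors take up chemokines without G protein signalling. Ackr2, a scavenger of inflammatory CC chemokines, had 1.47 and 1.31 in the KO pools, against 1.14 and 0.96 in the WT pools, with no overlap and a difference of 0.34 ± 0.20 (SE; limma, adjusted p = 0.625). Ackr3, which binds Cxcl12 and Cxcl11, had 0.40 and 1.05 in the KO pools and 0.47 and 0.48 in the WT pools. Ackr1 and Ackr4 were dim. Ccrl2, a presenter of chemerin, differed by -0.11 with overlapping pools. Cd74 was not analysed here.

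Of 30 tested genes of signalling downstream of chemokine receptors, 5 were higher at an unadjusted p under 0.05 and 0 were lower, beside 6.37% and 3.92% of all tested genes, with a median of 0.20. The 5 were Elmo1, a partner of Dock2 in Rac activation, at 1.38 ± 0.25 (SE), Rgs2, a regulator of G protein signalling, at 0.94 ± 0.22, the leukocyte integrin chains Itgb2 at 0.96 ± 0.26 and Itgal at 0.76 ± 0.22, and the Rac exchange factor Vav1 at 0.59 ± 0.23. Elmo1 had 3.80 and 3.96 in the KO pools, against 2.76 and 2.24 in the WT pools. None of the 5 passed over all genes (limma, adjusted p between 0.246 and 0.474).

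Of 12 tested proteases that cut or degrade chemokines, 5 were higher and 0 lower at an unadjusted p under 0.05, again beside 6.37% and 3.92%, with a median of 0.25. They were Mmp2 at 0.84 ± 0.27 (SE), Mmp14 at 0.70 ± 0.20, Mmp12 at 0.70 ± 0.19, Ctsk at 0.54 ± 0.20 and Ctss at 0.54 ± 0.22, with limma adjusted p between 0.344 and 0.483. Dpp4, which trims the N-terminus of Cxcl12 and other chemokines, had 7.14 and 7.17 in the KO pools and 7.26 and 7.09 in the WT pools, which overlap.

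Of 26 tested genes that induce chemokines or regulate their induction, 2 were higher and 1 was lower at an unadjusted p under 0.05. These shares were near the 6.37% and 3.92% of all tested genes, and the median difference of the list was 0.19. Tnf had 2.01 and 2.28 in the KO pools, against 1.39 and 0.89 in the WT pools, a difference of 1.01 ± 0.25 (SE; limma, adjusted p = 0.318). Ifngr1, a chain of the interferon gamma receptor, differed by 0.57 ± 0.19 and Il1r1, the interleukin-1 receptor, by -0.68 ± 0.23 (limma, adjusted p = 0.419 for both). Il1b had 1.76 and 1.33 in the KO pools and 1.05 and 1.94 in the WT pools, which overlap, and Ifng was dim.

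Lists of cell type markers are given beside these values. No gene of any of these lists passed an adjusted p of 0.05 by limma in the main fit. When the prior variance was allowed to follow intensity, 2 passed, both lower in KO. They were Marco (limma, adjusted p = 0.0181) and the hepatocyte marker Cps1 (limma, adjusted p = 0.0427), where 1.09% of all tested genes were called. Of 8 tested markers of monocytes and recruited macrophages, 7 were above 0, beside 51.6% of all tested genes. The markers' mean relative to the WT mean was 0.45 and 0.51 in the KO pools and 0.09 and -0.09 in the WT pools. Trem2 (1.30 ± 0.29 SE), Itgax (0.99 ± 0.28) and Cd9 (0.88 ± 0.25) were higher at an unadjusted p under 0.05, beside 6.37% of all tested genes. Ly6c2, a marker of Ccr2-positive monocytes, differed by -0.01 with overlapping pools. The adjusted p of those 3 by limma lay between 0.297 and 0.367. The other 4, Itgam, Lyz2, Adgre1 and Gpnmb, had differences between 0.13 and 0.27. The 6 Kupffer cell markers had a mean of -0.41 and -0.51 in the KO pools and -0.17 and 0.17 in the WT pools, with the scavenger receptor Marco at -2.37 ± 0.33 (SE; limma, adjusted p = 0.181) and C6 at -0.65 ± 0.19 (limma, adjusted p = 0.367). The other 4 did not share a direction, with Timd4 at -0.40, Vsig4 at -0.01, Clec4f at 0.33 and Cd5l at 0.36, so Marco has most weight in the mean, and the median difference of the list was -0.21.

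Of 6 neutrophil markers 5 were dim, S100a8, S100a9, Ly6g, Mpo and Retnlg, and Csf3r had 1.33 in both KO pools and 1.17 and 1.19 in the WT pools. The 6 tested T and NK cell markers had a mean of 0.21 and 0.14 in the KO pools and 0.10 and -0.10 in the WT pools, with Cd3d, Gzma and Gzmb dim. Of them 3 were above 0, Cd3g at 1.07 ± 0.34 (SE; limma, adjusted p = 0.397), Klrb1c at 0.48 and Cd8a at 0.36, and 3 below, Cd3e at -0.42, Cd4 at -0.40 with no overlap and Nkg7 at -0.02. The 3 tested B and plasma cell markers had a mean of 0.66 and 0.37 in the KO pools and -0.02 and 0.02 in the WT pools, with Jchain at 1.19 ± 0.26 (limma, adjusted p = 0.292), Cd79a at 0.52 ± 0.19 (adjusted p = 0.439), Cd79b at -0.16 with overlapping pools, and Ms4a1 dim. The 3 tested dendritic cell markers had a mean of 0.17 and 0.39 in the KO pools and -0.42 and 0.42 in the WT pools, with Flt3 and Itgae dim. Of these, Cd209a had 2.70 and 3.78 in the KO pools and 1.37 and 3.98 in the WT pools, so the WT pools lay furthest apart.

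The 5 stellate cell and fibroblast markers had a mean of 0.37 and 0.47 in the KO pools and 0.07 and -0.07 in the WT pools, with Pdgfrb at 1.14 ± 0.20 (SE) and Col1a1 at 0.71 ± 0.19 (limma, adjusted p = 0.24 and 0.346). The pools of the other 3 overlapped, with Dcn at 0.23, Lrat at 0.11 and Reln at -0.11. The 4 tested cholangiocyte markers had a mean of 0.25 and 0.71 in the KO pools and 0.19 and -0.19 in the WT pools. Sox9 at 0.86, Epcam at 0.71 and Krt7 at 0.40 were above 0, and Krt19 at -0.06 was below. The pools of Sox9 and Krt19 overlapped. The 5 markers of sinusoidal endothelium had a mean of -0.07 and 0.03 in the KO pools and -0.03 and 0.03 in the WT pools, and the 6 hepatocyte markers one of -0.19 and -0.15 in the KO pools and 0.00 in both WT pools. The hepatocyte markers did not share a direction. Below 0 were Tat at -0.43, Cps1 at -0.39, Hnf4a at -0.28 and Alb at -0.15. Above 0 were Apoa1 at 0.05 with overlapping pools and Ttr at 0.17 with no overlap. The platelet marker Gp9 differed by 0.61 ± 0.21 (SE; limma, adjusted p = 0.426), with Itga2b dim, beside the lower values of Ppbp. By the same measure the 23 chemokine genes had 0.25 in both KO pools and 0.03 and -0.03 in the WT pools. The part of these cell types in the chemokine differences was not tested.

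**Figure D5:**
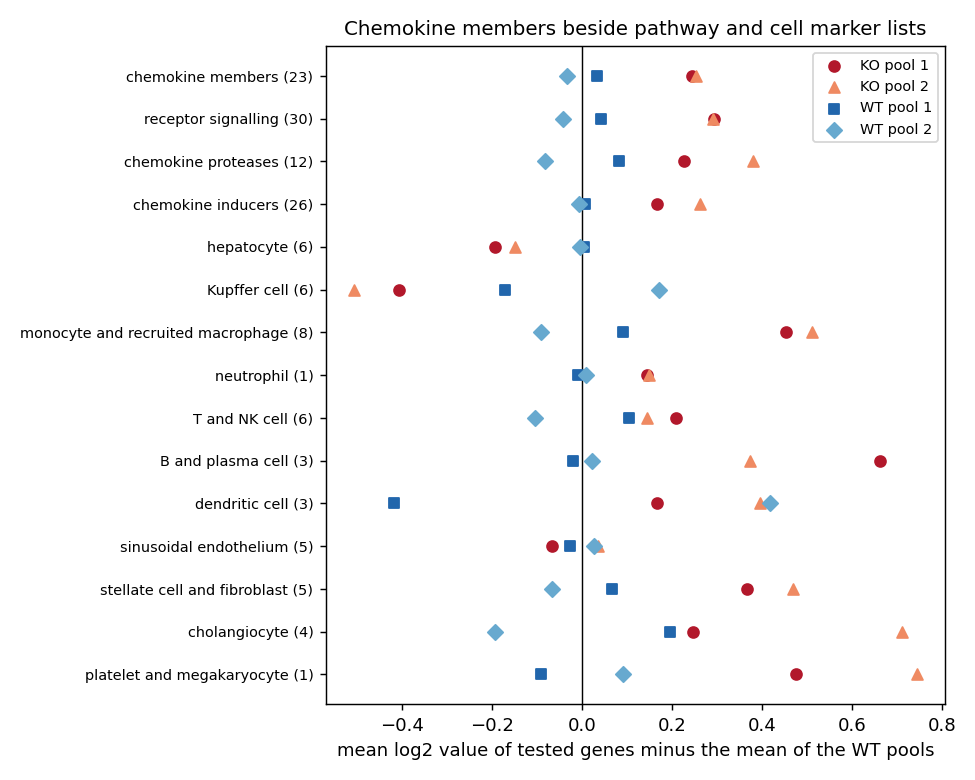
Mean log2 value of the tested genes of each list minus its mean over the WT pools (horizontal axis), in KO pools 1 and 2 and WT pools 1 and 2, with the number of tested genes in brackets. The means of the chemokine genes (0.25 in both KO pools) and of the monocyte and macrophage markers (0.45 and 0.51) lie right of the WT pools. The mean of the hepatocyte markers (-0.19 and -0.15) lies left, though 2 of these 6 genes were higher in KO.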

How the data were processed

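The deposited values are log2 expression values of 41345 probe sets on 4 arrays, 2 pools of liver RNA per genotype, with 400 ng of RNA per array per the labels' protocols. Per the submitters' processing notes the authors used oligo, RMA and limma. Their versions, the order of steps and the genome build are not given in the sources used. No batch could be tested, since neither scan dates nor slides are known. Array medians were 0.64 and 0.53 in the KO pools and 0.52 and 0.56 in the WT pools.

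By the platform annotation, 23521 probe sets have 1 gene symbol, 1814 several and 16010 none, and only the first were used. For each gene the probe set with the highest mean was kept, and genes with a mean of at least 0.54, the median of all probe sets, were tested. KO and WT were compared with lmFit and eBayes of limma 3.58.1 under R 4.3.3 (2 residual and 3.67 prior degrees of freedom, no covariate) with Benjamini-Hochberg adjustment over 12458 genes. The p-values reflect only the spread among these pools. Of the 50 genes, 49 have their Entrez identifier in the RefSeq table of GRCm38.p6.

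Values in every pool are given by rule for chemokine genes at an unadjusted p under 0.05, for those whose pools did not overlap and for their ligand or receptor partners; from each other list, up to 5 genes at that threshold and a few fixed ones (Cx3cr1, Tnf, Adam10 and the like) are named. Ccl5, Ccl9, Ccl28, Ccr4, Ccr7, Cxcl9, Cxcl10, Cxcr1, Csf3r, Elmo1 and Ly6c2 were singled out after their values were seen. So were the 2 longest runs of neighbouring CC ligands. The members and lists were chosen with earlier results of these data known. Same-numbered pools did not deviate together (correlation of deviations across genes -0.04), so the numbers are not taken as pairs.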

Additional observations from a re-analysis of the deposited data

How the results depend on the processing

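The 23 tested genes gave 270 differences under the alternatives, and 255 kept their direction and side of the adjusted threshold. Cxcl16 passed that threshold when variance followed intensity (1.20), which called 136 genes in all and 1 chemokine gene. The other 14 values turned sign, in Ccr7 (-0.0016 with arrays centred on their medians) and when a pool was left out, where the lowest and highest values were -0.12 and 1.58 for Ccl2, -0.63 and 0.12 for Ccl25, -0.52 and 0.42 for Ccl3, -1.35 and 0.33 for Ccl5, -0.027 and 0.21 for Ccl6, -0.15 and 0.78 for Ccl7, -0.35 and 0.12 for Ccl8, -0.62 and 0.71 for Ccr7 and -0.11 and 0.54 for Cxcl10. The cause was not tested. Without 1 pool, a genotype is a single array that is assumed to vary like the other genotype, so p-values gained or lost there say little about stability. In those fits limma called 0 genes over all, whichever pool was left out, while between 906 and 1314 passed an unadjusted p of 0.05. Chemokine genes higher at that threshold numbered 1 to 6 without 1 pool (1 without WT pool 2, which was Cxcl16, and 5 without WT pool 1), and lower ones 0 to 1, which was Ccr7 without KO pool 1 and Ccl5 without KO pool 2. With quantile normalization 1 of 23 was lower at that threshold, beside 538 of all 12458 tested genes. With no filter 1 of 50 was lower, beside 683 of 22180. Genes wholly above in KO numbered 10 to 14 and wholly below 2 to 5 without 1 pool, when fewer pools can overlap, beside 34.4% to 39.8% and 30.5% to 38.4% of all tested genes. With no filter they numbered 14 and 8, beside 20.9% and 17.04%. Wholly below was 1 of 17 chemokine genes with the stricter filter, beside 21.9% of all tested genes. With the mean of probe sets it was 1 of 23, beside 19.4%. The median difference of 0.30 was 0.12 with no filter, which adds the dim genes, and 0.21 to 0.32 without 1 pool. With the replicate number as a block, which takes 1 of 2 residual degrees of freedom, 2 genes were called over all and the same 3 chemokine genes had an unadjusted p under 0.05. At that threshold 754 of all 12458 tested genes were then higher and 459 lower.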
